A study of Mus musculus and Rattus norvegicus with 30 samples.

Results

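The genes described here encode the sodium leak channel NALCN and its partner proteins: Nalcn itself, Unc79, Unc80 and Fam155a, together with LncRNA6792, an assembled long noncoding RNA (LncRNA) on the strand opposite to Nalcn. The 4 protein-coding genes were taken by symbol for their known place in the channel complex. LncRNA6792 was selected on measured values, since it was among the assembled LncRNAs with a large change in B10.D2 mice after nerve injury. All 5 members have a row in the mouse table of 54315 features. In the rat table of 39281 features only Nalcn and Unc79 have a row under these symbols.

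The RNA came from dorsal root ganglia (DRG), which hold the cell bodies of sensory neurons together with satellite glia, Schwann cells, macrophages and vessel and connective tissue cells. The mice were adult males and females of the inbred strains BALB/c and B10.D2, without any transgene, and 28 days after surgery the L3 and L4 ganglia of each animal were pooled into 1 library of ribosome-depleted RNA. Spared nerve injury (SNI) cuts the common peroneal and sural branches of the sciatic nerve and leaves the tibial branch, so these ganglia hold injured and uninjured neurons side by side, and the controls had sham surgery. There were 6 sham and 4 SNI libraries of BALB/c and 5 of each kind of B10.D2, with 29989963 to 41881331 counts each. The rats were male Wistar animals 21 days after spinal nerve transection (SNT) or sham surgery, and each of the 4 SNT and 4 sham libraries was polyadenylated RNA of L5 ganglia pooled from 3 animals, with 11954612 to 17887909 counts.

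NALCN is a voltage-insensitive cation channel that carries a small inward sodium current at rest and so sets how far a neuron lies from its firing threshold. UNC79 and UNC80 are very large cytoplasmic proteins that bind each other and the channel, and UNC80 links the complex to Src family kinases and G protein-coupled receptors. FAM155A is a membrane protein that sits on the extracellular face of the channel and is needed for its passage to the cell surface. In sensory and spinal neurons the channel is known as a source of background excitatory current, opposed by the leak potassium currents of the two-pore domain (K2P) channels.

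Nalcn (ENSMUSG00000000197) lies on mouse chr14:123276634-123627144 on the minus strand (mm10). LncRNA6792 spans chr14:123345888-123361585 on the plus strand, entirely within Nalcn, 265.6 to 281.3 kb from the annotated Nalcn start. As assembled it has 37 exons with 9349 exonic bases in a span of 15698 bases. Its antisense relation to Nalcn exons rests on 1 coding exon, exon 18 of 44 of transcript Nalcn-201 at chr14:123348762-123348835, of which LncRNA6792 exons 10 and 11 cover 57 of 74 bases. These 57 bases are 0.61% of the exonic bases of LncRNA6792, and the rest lies in the Nalcn introns of 21.1 kb before and 24.9 kb after that exon. The exon is shown on both strands, 5′ to 3′ and with the bases inside LncRNA6792 exons in capitals, because it is the whole of the exonic overlap.
Nalcn strand (minus): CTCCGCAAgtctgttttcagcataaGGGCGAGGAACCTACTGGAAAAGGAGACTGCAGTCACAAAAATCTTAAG
LncRNA6792 strand (plus): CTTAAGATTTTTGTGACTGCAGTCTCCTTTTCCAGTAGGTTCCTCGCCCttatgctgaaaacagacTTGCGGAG
The sequence is that of the mm10 reference, which is C57BL/6J, and the strains sequenced may differ from it. The partner genes lie elsewhere in mm10: Unc80 (ENSMUSG00000055567) at chr1:66468367-66699148 on the plus strand, Unc79 (ENSMUSG00000021198) at chr12:102948859-103184065 on the plus strand and Fam155a (ENSMUSG00000079157) at chr8:9205902-9771161 on the minus strand.

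**Figure D1:**
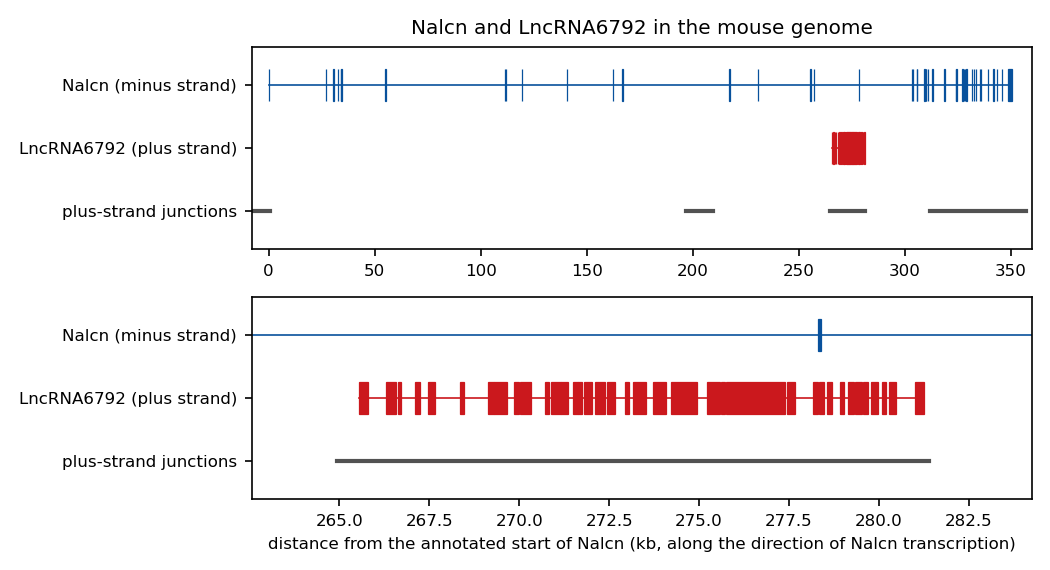
Exons of Nalcn and LncRNA6792 and the deposited plus-strand splice junctions, by distance in kb from the annotated start of Nalcn along its direction of transcription, for the whole gene (top) and around LncRNA6792 (bottom). LncRNA6792 covers 265.6 to 281.3 kb and meets 1 Nalcn exon, at 278.3 kb; exons narrower than the line are drawn at a minimum width.

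The exons of LncRNA6792 were not joined by deposited splice junctions. None of its 36 gaps between exons, 7 to 685 bases long, matched a plus-strand junction, whereas each of the 43 Nalcn introns had a junction on the minus strand. Gaps shorter than the study's minimum junction length, as the shortest here, could not match one. The study's assembly also placed gaps at drops in coverage. A plus-strand junction of 16468 bases, chr14:123345748-123362215, spans all of LncRNA6792, starting 140 bases before it and ending 630 bases after it. The 40 bases around each end of that junction are shown on the plus strand, with the bases that border the junction on its inner side in capitals.
Junction start, chr14:123345728-123345767: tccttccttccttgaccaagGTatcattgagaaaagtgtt
Junction end, chr14:123362196-123362235: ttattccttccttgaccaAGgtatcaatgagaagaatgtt
These stretches were alike in 35 of 40 positions, compared with 5 to 39 and a median of 11 over the other 56 junctions at Nalcn, and 2.37% of the 9084 junctions on chromosome 14 had ends at least as alike. Repeat sequence, as masked in the reference, made up 51.7% of the exonic bases of LncRNA6792 and 12.3% of those of Nalcn. Over the 204 assembled LncRNAs of chromosome 14 the median was 24.1%, and 30 of them lay above LncRNA6792.

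Libraries were stranded by the dUTP method, and the study found the covered regions for its LncRNAs by strand. Whether features were counted by strand is not given in the sources used here. If they were not, reads from unspliced Nalcn RNA within these introns could not be told apart from LncRNA6792. Levels are given in CPM, counts per 1000000 counts of the library, scaled between libraries by the trimmed mean of M values (TMM).

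LncRNA6792 was near the limit of detection in sham ganglia and higher after SNI in both strains. In BALB/c sham ganglia it ranged from 0 to 0.251 CPM with a median of 0.102 CPM over 6 libraries, on 0 to 10 counts. The count of 0 in sham library 56 allows a level of up to 0.0828 CPM. In BALB/c SNI ganglia the values were 2.08, 2.66, 1.24 and 1.16 CPM in libraries 49, 64, 65 and 70, on 41 to 106 counts. Every SNI library lay above every sham library. The mean was 0.113 ± 0.0839 CPM in sham (n = 6, SD) and 1.79 ± 0.713 CPM after injury (n = 4), a change of 3.95 on the log2 scale (SE 0.447, adjusted edgeR p 5.23e-06), or 15.4-fold. This p-value is not independent support. The RNA was chosen with these data in view and passed the filter on low counts through its SNI libraries. The study kept an assembled LncRNA only where all replicates of a condition or strain held it. The study also set a minimum mean level, to be passed in some condition. Whether LncRNA6792 reached that minimum was not checked here. Fitted on the BALB/c libraries alone, the change was 3.96 on the log2 scale (SE 0.445).

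In B10.D2, the strain whose values selected LncRNA6792, the levels are a description with no test. Sham libraries 58, 60, 67, 77 and 88 held 0.263, 0.211, 0.136, 0.160 and 0.121 CPM. SNI libraries 69, 76, 78, 89 and 90 held 3.29, 0.766, 2.23, 1.93 and 2.46 CPM. The groups did not overlap, and library 76 lay well below the other SNI libraries. In that library the summed level of 10 injury marker genes was 888 CPM, compared with 1135 to 1227 CPM in the other B10.D2 SNI libraries and 608 to 732 CPM in B10.D2 sham, so LncRNA6792 and the injury markers were lowest in the same injured library. The part of the injury markers in its low LncRNA6792 was not tested. The group means were 0.178 ± 0.0586 for sham and 2.14 ± 0.919 for SNI, in CPM with the SD over 5 libraries each, a change of 3.61 on the log2 scale (SE 0.429). The B10.D2 change minus the BALB/c change was -0.34 on the log2 scale, with an SE of 0.674. In sham ganglia the strains differed by 0.60 on the log2 scale (SE 0.597), on 0 to 10 counts a library and likewise with no test.

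**Figure D2:**
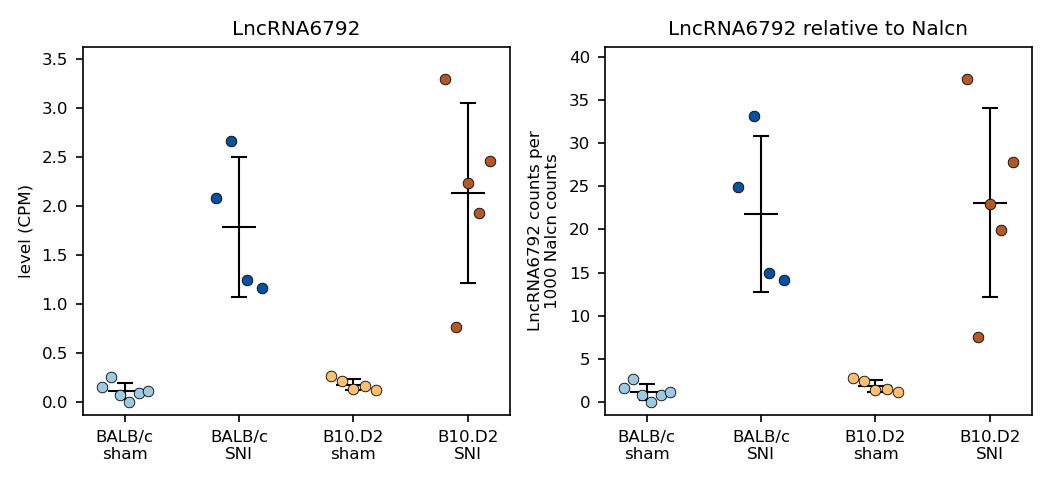
LncRNA6792 in the 20 mouse libraries, as CPM (left) and as counts per 1000 Nalcn counts (right), 1 point per library, with the mean and SD of each strain and surgery group. All sham libraries lie at or below 0.263 CPM and all SNI libraries at or above 0.766 CPM.

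Set against its sense gene, LncRNA6792 remained a small fraction of the counts at the locus. In sham ganglia there were 1.19 ± 0.896 LncRNA6792 counts per 1000 Nalcn counts in BALB/c (SD, n = 6) and 1.87 ± 0.709 in B10.D2 (SD, n = 5). After SNI there were 21.8 ± 9.03 in BALB/c (SD, n = 4) and 23.1 ± 10.96 in B10.D2 (SD, n = 5). Per kilobase of exon, LncRNA6792 reached 0.191 ± 0.0763 CPM per kb in BALB/c SNI and 0.228 ± 0.0983 CPM per kb in B10.D2 SNI, and Nalcn stood at 5.59 ± 0.0976 and 6.42 ± 0.411 CPM per kb in the same groups.

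Nalcn, the pore-forming subunit, fell slightly after SNI in BALB/c and did not pass the test in B10.D2. BALB/c sham libraries ranged from 88.3 to 104 CPM with a median of 92.9 CPM. BALB/c SNI libraries 49, 64, 65 and 70 held 83.3, 80.1, 83.0 and 82.6 CPM, all below every sham library. Sham averaged 94.9 ± 6.33 CPM (n = 6, SD) and SNI 82.3 ± 1.44 CPM (n = 4), so Nalcn fell by 13.3%, a change of -0.21 on the log2 scale (SE 0.0553, adjusted edgeR p 0.0208). The call was narrow, with an adjusted p of 0.0599 when libraries were scaled by the summed neuron markers, 0.05001 without sham library 57 and 0.0630 without SNI library 64, at log2 fold changes of -0.18, -0.18 and -0.20.

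In B10.D2 the Nalcn values of the groups overlapped. Sham libraries 58, 60, 67, 77 and 88 held 92.6, 88.3, 96.9, 102 and 102 CPM. SNI libraries 69, 76, 78, 89 and 90 held 88.01, 102, 97.2, 96.6 and 88.5 CPM. The log2 fold change was -0.04 (SE 0.0543, adjusted edgeR p 0.811) and turned to 0.02 under neuron marker scaling. The difference between the strains in the injury change of Nalcn was 0.17 (log2, SE 0.0775), with an unadjusted p of 0.0397 and an adjusted edgeR p of 1, so a difference in response was not shown. After SNI, every B10.D2 library lay above every BALB/c library for Nalcn, and the share of all features that separate the strains in this way was not determined. Nalcn was higher in B10.D2 by 0.20 on the log2 scale (SE 0.0575, adjusted edgeR p 0.0172), in a comparison where 20.8% of features passed. That call was lost under neuron marker scaling (log2 fold change 0.15, adjusted edgeR p 0.0742) and without BALB/c SNI library 64 (0.17, adjusted p 0.0718). In sham ganglia the strain difference of Nalcn was 0.03 (SE 0.0516, adjusted edgeR p 0.778).

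Unc80, the scaffold between the channel and its kinases and receptors, passed the injury test in both strains. BALB/c sham libraries ranged from 339 to 389 CPM with a median of 366 CPM. BALB/c SNI libraries 49, 64, 65 and 70 held 289, 239.8, 243 and 274 CPM, each below every sham library. Sham averaged 365 ± 17.1 CPM (n = 6, SD) and SNI 261 ± 23.8 CPM (n = 4), so Unc80 fell by 28.6%, a change of -0.49 on the log2 scale (SE 0.0575, adjusted edgeR p 9.27e-06).

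Unc80 was lower after SNI in B10.D2 too. Sham libraries 58, 60, 67, 77 and 88 held 410.5, 414, 362, 341 and 322 CPM. SNI libraries 69, 76, 78, 89 and 90 held 277, 289, 273, 296 and 289 CPM. The groups again did not overlap, although the sham libraries were widely spread. Unc80 fell by 21.7%, a change of -0.35 on the log2 scale (SE 0.0562, adjusted edgeR p 0.000553). Under every alternative and with any library left out the adjusted p of Unc80 stayed at or below 0.0125 in B10.D2 and 0.00012 in BALB/c. The injury change differed between strains by 0.13 (log2, SE 0.0800, adjusted edgeR p 1). The strain difference of Unc80 was 0.00 in sham (SE 0.0533, adjusted edgeR p 0.967) and 0.14 after SNI (SE 0.0593, adjusted edgeR p 0.108).

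Unc79, which joins UNC80 in the complex, did not pass the test in either strain. BALB/c sham libraries ranged from 48.2 to 55.96 CPM with a median of 53.4 CPM, and SNI libraries 49, 64, 65 and 70 held 46.2, 53.0, 50.6 and 45.0 CPM. In B10.D2 the sham libraries held 50.5, 57.4, 54.8, 57.2 and 50.5 CPM and the SNI libraries 52.4, 52.7, 50.7, 50.1 and 49.6 CPM, in the library order given for Unc80. The groups overlapped in both strains. The log2 fold changes were -0.11 in BALB/c (SE 0.0438, adjusted edgeR p 0.121) and -0.10 in B10.D2 (SE 0.0431, adjusted edgeR p 0.228). Unc79 differed between strains by 0.05 in sham (SE 0.0410, adjusted edgeR p 0.445) and by 0.06 after SNI (SE 0.0455, adjusted edgeR p 0.387).

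Fam155a, the surface-trafficking subunit, passed the test between the strains and not the test for injury. BALB/c sham libraries ranged from 25.2 to 30.2 CPM with a median of 28.7 CPM, and SNI libraries 49, 64, 65 and 70 held 26.9, 25.9, 24.5 and 26.8 CPM. B10.D2 sham libraries 58, 60, 67, 77 and 88 held 26.9, 26.3, 25.8, 23.1 and 23.1 CPM, and SNI libraries 69, 76, 78, 89 and 90 held 22.6, 20.1, 21.7, 23.8 and 23.8 CPM. The strains overlapped in sham and did not after SNI, and the share of all features without overlap between strains was not determined. Fam155a was lower in B10.D2 than in BALB/c, with differences of -0.19 in sham ganglia on the log2 scale (SE 0.0517, adjusted edgeR p 0.0103) and of -0.21 after SNI (SE 0.0572, adjusted edgeR p 0.0118). The injury changes were -0.12 in BALB/c (SE 0.0550, adjusted edgeR p 0.174) and -0.14 in B10.D2 (SE 0.0545, adjusted edgeR p 0.163).

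**Figure D3:**
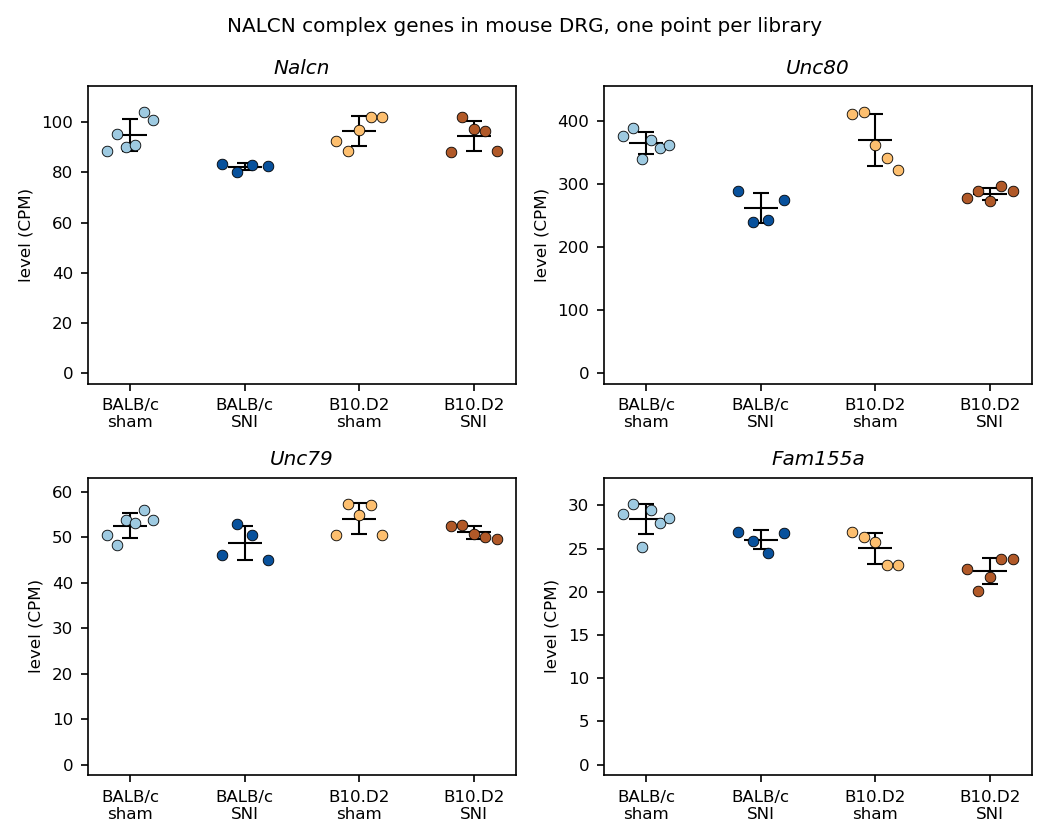
Levels of Nalcn, Unc80, Unc79 and Fam155a in CPM, 1 point per mouse library, with the mean and SD of each strain and surgery group. Unc80 separates sham from SNI in both strains; BALB/c SNI libraries of Nalcn lie between 80.1 and 83.3 CPM, below all other libraries.

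Per kilobase of exon the complex was led by Unc80 in all 20 libraries. In BALB/c sham it stood at 25.3 ± 1.18 CPM per kb, followed by Nalcn at 6.45 ± 0.430, Fam155a at 4.34 ± 0.268 and Unc79 at 3.68 ± 0.193 CPM per kb (SD, n = 6). In B10.D2 sham the levels were 25.6 ± 2.85, 6.56 ± 0.419, 3.83 ± 0.278 and 3.79 ± 0.240 CPM per kb in the same order of genes (SD, n = 5). Fam155a and Unc79 were thus within their spread of each other in B10.D2, and Fam155a was above Unc79 in 15 of 20 libraries. Ribosome-depleted RNA includes unspliced transcripts, whose part in these exon counts was not tested.

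The counts of called members can be read against all features. In BALB/c, 2 of the 4 protein-coding members passed the test, both lower, where 9.69% of 24685 features passed, 4.82% higher and 4.87% lower. In B10.D2, 1 of 4 passed, lower, where 4.58% passed, 2.10% higher and 2.48% lower. Sham and SNI groups did not overlap for 8.61% of features in BALB/c, among them Nalcn and Unc80, and for 5.18% in B10.D2, among them Unc80. Between strains, 1 of 4 passed in sham (Fam155a) and 2 of 4 after SNI (Nalcn and Fam155a), where 21.6% and 20.8% of features passed. Under neuron marker scaling the split of called features in B10.D2 was 603 higher and 250 lower, against 519 and 611 before, and between strains in sham it was 1944 and 3727, against 2847 and 2475. None of the 4 protein-coding members passed for the difference between the injury changes, for which 0.0243% of features did, or for sex, for which 0.243% did (25 higher and 35 lower in males, and 23 and 652 under that scaling).

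Between males and females the unadjusted p-values were 0.00330 for Unc79 (log2 fold change -0.10), 0.00841 for Unc80 (0.12) and 0.0213 for Fam155a (0.10), and the adjusted edgeR p-values were 0.178, 0.235 and 0.319. Unc79 passed in this comparison only under neuron marker scaling, at -0.19 and an adjusted p of 0.0178.

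**Figure D4:**
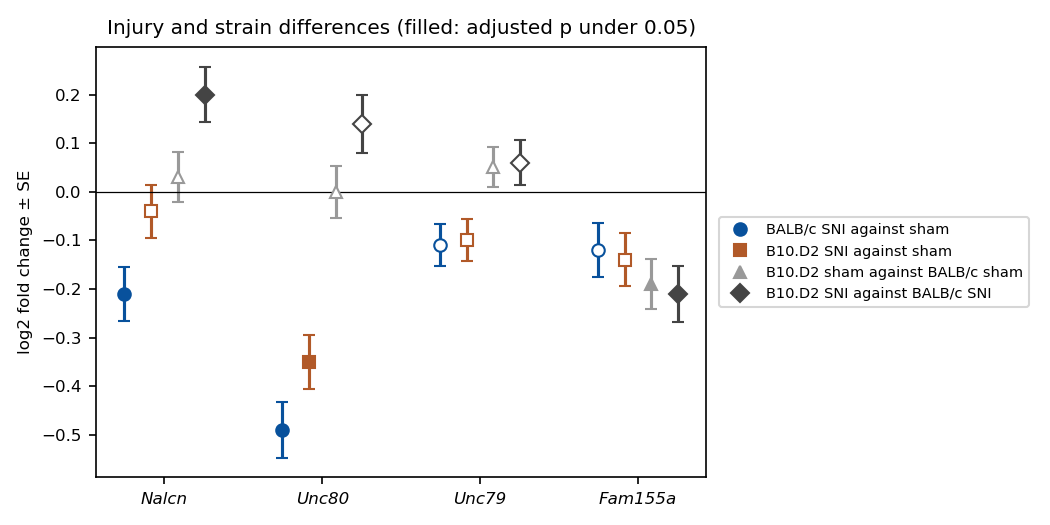
Log2 fold changes with their standard errors for Nalcn, Unc80, Unc79 and Fam155a in the 4 mouse comparisons of injury and strain, filled where the adjusted edgeR p is under 0.05. Both injury changes of Unc80 and the BALB/c change of Nalcn are filled and below 0, and both strain differences of Fam155a are filled and below 0.

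Within groups the correlation of LncRNA6792 with Nalcn was negative and did not pass the test. Because sham and SNI libraries form separate clusters for LncRNA6792, log2(CPM + 0.1) of each was centred on its strain and surgery group. Over the 20 libraries Pearson's r was -0.38 (permutation p 0.147, adjusted p 0.295 over 2 relations) and Spearman's rho was -0.42 (permutation p 0.0821, adjusted p 0.164), with 2-sided shuffling within groups. Without the 2 libraries with the most extreme Nalcn, BALB/c sham 57 and B10.D2 sham 60, r was -0.40. The value moved with the treatment of low counts and with single libraries. It was -0.46 with a permutation p of 0.0146 for log2(CPM + 1), -0.14 with a permutation p of 0.673 for log2(CPM + 0.01), and -0.54 with a permutation p of 0.0180 without BALB/c sham library 56, which held no LncRNA6792 count. Without B10.D2 SNI library 76, which combined low LncRNA6792 with high Nalcn, r was -0.21 (permutation p 0.464). In BALB/c sham alone r was 0.17 (exact permutation p 0.738, adjusted p 0.738) and rho was 0.03 (exact permutation p 1, n = 6), on 0 to 10 counts of LncRNA6792 per library.

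**Figure D5:**
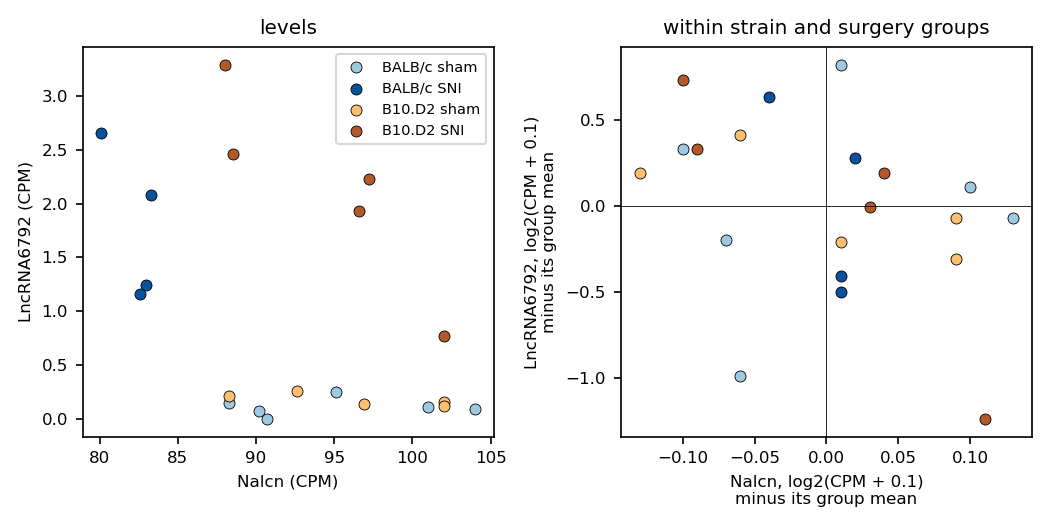
LncRNA6792 against Nalcn in the 20 mouse libraries, as CPM (left) and as log2(CPM + 0.1) minus the mean of each strain and surgery group (right). On the left the sham libraries form a band at or below 0.263 CPM of LncRNA6792 across the range of Nalcn; on the right r is -0.38.

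By Pearson's correlation of log2(CPM + 0.1) over the 20 mouse libraries, among the 18591 tested features averaging 1 CPM or more, the features most like Nalcn were Plcd4 (0.88), a phospholipase C, LncRNA446 (0.88) and Slc9a9 (0.88), an endosomal sodium/proton exchanger. Each was lowest in BALB/c SNI, as Nalcn was: Plcd4 averaged 39.6 CPM there and 50.4 to 53.9 CPM in the other groups. Unc79 and Unc80 had correlations of 0.44 and 0.42 with Nalcn, and Fam155a one of -0.23. Most like LncRNA6792 were Bach1 (0.97), a transcriptional repressor, Chl1 (0.96), a neural cell adhesion molecule, and Abca1 (0.95), a cholesterol exporter. All 3 were higher after SNI: Chl1 averaged 175 and 354 CPM in BALB/c sham and SNI and 192 and 301 CPM in B10.D2. These correlations span the sham and SNI groups and are given as a description.

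Within 500000 bases of LncRNA6792 there were 13 neighbours besides Nalcn, of which 9 could be tested, and the same 3 passed in each strain. Over all features 9.69% passed in BALB/c and 4.58% in B10.D2. Tmtc4, which encodes an endoplasmic reticulum protein, rose with a log2 fold change of 0.50 in BALB/c (SE 0.0580, adjusted edgeR p 6.23e-06) and 0.50 in B10.D2 (SE 0.0581, adjusted edgeR p 2.45e-05). Ggact, a gamma-glutamylamine cyclotransferase gene, fell by 0.23 on the log2 scale in BALB/c (adjusted edgeR p 0.0130) and by 0.23 in B10.D2 (adjusted edgeR p 0.0219). That call was lost in BALB/c without SNI library 49, and in B10.D2 under neuron marker scaling, with the strain fitted alone and without any of sham library 88 or SNI libraries 69, 78 and 90.

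The third was LncRNA6793 (chr14:123627242-123649539, plus strand), an assembled LncRNA that begins 98 bases upstream of the annotated Nalcn start and runs in the opposite direction. It had 0 to 3 counts in each BALB/c sham library and 10, 15, 18 and 15 counts in BALB/c SNI libraries 49, 64, 65 and 70. In B10.D2 it had 1, 6, 2, 3 and 3 counts in sham libraries 58, 60, 67, 77 and 88 and 22, 4, 28, 9 and 10 counts in SNI libraries 69, 76, 78, 89 and 90. The BALB/c groups did not overlap, and in B10.D2 SNI library 76 fell within the sham range, as the lowest of the SNI libraries for LncRNA6792 too. The log2 changes were 3.33 in BALB/c (SE 0.596, adjusted edgeR p 0.000803) and 2.13 in B10.D2 (SE 0.535, adjusted edgeR p 0.0234). LncRNA6793 too passed the filter on low counts through its SNI libraries, so these p-values are not independent support. The B10.D2 call was lost with the strain fitted alone and without any of 5 single libraries, with an adjusted p of up to 0.0828. Pcca, both 4930594M22Rik genes, Itgbl1, LncRNA2712 and LncRNA2713 did not pass in either strain, Gm9308 was too low to test, and AC158982.1, Gm49294 and Gm49297 were not analysed here.

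Among 10 genes of receptors, ligands and kinases known to act on NALCN, 3 passed in BALB/c, with 2 higher and 1 lower, and 1 passed in B10.D2, higher. Nts, encoding the neuropeptide neurotensin, rose from 11.7 ± 4.30 to 92.6 ± 7.97 CPM in BALB/c (adjusted edgeR p 1.9e-07) and from 11.6 ± 2.92 to 75.1 ± 29.7 CPM in B10.D2 (adjusted edgeR p 4.93e-06). In BALB/c, the neurotensin receptor gene Ntsr2 had a log2 fold change of -0.87 (adjusted edgeR p 0.00897) at 1.29 to 2.37 CPM, and the muscarinic receptor gene Chrm3 one of 0.43 (adjusted edgeR p 0.00731), which was lost without SNI library 64 (adjusted p 0.0542). Nts is also among the injury markers used here. The list median was 0.19 in BALB/c and 0.05 in B10.D2, beside 0.003 and 0.008 over all features tested. The share of all features that passed was 9.69% in BALB/c and 4.58% in B10.D2. Between strains Ntsr1 (1.88, adjusted p 4.49e-05) and Casr (0.73, adjusted p 0.0110) were higher and Ntsr2 (-0.66, adjusted p 0.0143) lower in B10.D2 sham, and Casr was higher (0.85, adjusted p 0.00777) and Fyn lower (-0.18, adjusted p 0.00396) in B10.D2 after SNI, all as edgeR log2 fold changes. The Casr call in sham was lost without B10.D2 sham library 88 (adjusted edgeR p 0.0537). Of all features 21.6% passed between strains in sham and 20.8% after SNI. Tacr1, the substance P receptor, had group means of 0.257 to 0.498 CPM in all 4 groups, with adjusted edgeR p-values for injury of 0.0815 (BALB/c) and 0.937 (B10.D2).

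The K2P channels, which carry the opposing potassium leak, were mostly not called. Of 14 genes 12 were tested, and 3 passed in BALB/c (1 higher, 2 lower) and 2 in B10.D2 (1 higher, 1 lower), with list medians of 0.10 and 0.08. Over all features 9.69% passed in BALB/c and 4.58% in B10.D2. Kcnk16 (TALK-1) rose from 0.105 ± 0.0684 to 1.12 ± 0.299 CPM in BALB/c (log2 fold change 3.40, adjusted edgeR p 2.85e-06) and from 0.115 ± 0.0385 to 1.24 ± 0.391 CPM in B10.D2 (3.45, adjusted edgeR p 1.11e-05). Being near the limit of detection in sham, Kcnk16 passed the filter on low counts through its SNI libraries, so its p-values are not independent support. Kcnk1 (TWIK-1) fell by 0.57 on the log2 scale in BALB/c (adjusted edgeR p 0.00192) and by 0.53 in B10.D2 (adjusted edgeR p 0.00577). Kcnk18 (TRESK) passed in BALB/c only, at -0.28 (adjusted edgeR p 0.0317), a call lost with BALB/c fitted alone and without any of 5 single libraries. The strain difference in the change was not called for any K2P gene.

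Between strains 3 of 12 K2P genes passed in sham and 3 after SNI, near the shares of 21.6% and 20.8% over all features. In sham ganglia Kcnk9 was higher in B10.D2 with a log2 fold change of 1.77 (adjusted edgeR p 1.32e-08), Kcnk12 higher with 0.56 (adjusted edgeR p 0.0108) and Kcnk18 lower with -0.78 (adjusted edgeR p 1.05e-07). After SNI Kcnk9, Kcnk4 and Kcnk18 passed, with 2.27, 0.30 and -0.58 (adjusted edgeR p 5.88e-09, 0.0203 and 2.45e-05). The Kcnk4 call was lost under neuron marker scaling (adjusted p 0.0750), without a filter on low counts (0.0681) and without any 1 of 4 libraries (up to 0.0777).

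Defining neuron markers were present, as the tissue label has it, and all 10 were counted in mouse, at a summed 7364 to 9042 CPM in the 20 libraries. In BALB/c 1 of 10 passed lower (Snap25, log2 fold change -0.51) and 1 higher (Stmn2, 0.29, lost without any 1 of 12 libraries), and in B10.D2 1 passed lower (Snap25, -0.43). The summed level had a median of 8586 CPM in B10.D2 sham and 7988 CPM in B10.D2 SNI, with overlapping ranges. Of 7 macrophage markers 3 passed higher in BALB/c (Cx3cr1, Cd68 and Csf1r, log2 fold changes of 0.97, 0.62 and 0.47, the last 2 lost under neuron marker scaling, with the strain fitted alone and without any 1 of 7 libraries), with sums of 59.6 to 148 CPM in BALB/c sham and 109.6 to 169 CPM in BALB/c SNI, and the sums were 116 to 138 and 123 to 195 CPM in B10.D2. Of 6 satellite glia markers Cdh19 passed higher in each strain (0.54 and 0.30, the latter lost without any 1 of 5 libraries), and of 4 fibroblast markers Lum did (0.45 and 0.52, the former lost with the strain fitted alone and without any 1 of 2 libraries). Satellite glia sums were 2269 to 2578 and 2397 to 2940.5 CPM in sham and SNI of BALB/c and 2157 to 2499.7 and 2198 to 2521 CPM in B10.D2, and fibroblast sums were 591 to 834, 718 to 1094, 821 to 895 and 808 to 1205 CPM in the same order. All 10 injury markers passed in BALB/c and 9 in B10.D2, all higher. Beside these marker counts, 9.69% of all features passed in BALB/c (4.82% higher, 4.87% lower). In B10.D2 the share was 4.58% (2.10% higher, 2.48% lower). The part of these shifts in the falls of Unc80 and Nalcn was not tested beyond the neuron marker scaling, and in whole ganglia fewer cells of a type and less RNA per cell cannot be told apart.

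In rat, Nalcn was listed at 0 in all 8 libraries, as were 52.2% of 32623 annotated features, among them the neuronal genes Tubb3, Uchl1 and Rbfox3, and no level is drawn from it. Unc79 fell after SNT. Sham libraries 1 to 4 held 42.03, 38.7, 47.1 and 29.97 CPM, and SNT libraries 1 to 4 held 31.04, 22.4, 22.3 and 27.3 CPM. The groups overlapped because SNT library 1 lay above sham library 4. In summed injury markers sham library 4 held 1479 CPM and the other sham libraries 598 to 680.4 CPM. SNT library 1 held 1903 CPM, the lowest of the SNT libraries, which reached 2880.0 CPM. The part of the injury markers in this overlap was not tested. The mean changed from 39.5 ± 7.20 to 25.8 ± 4.21 CPM (SD, n = 4 each), so Unc79 fell by 34.6%, a change of -0.61 on the log2 scale (SE 0.163, adjusted edgeR p 0.0234), in a comparison where 27.4% of 13690 features passed, 12.3% higher and 15.1% lower (1680 and 2073 features, and 473 and 1242 under neuron marker scaling).

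Sham and SNT libraries that share the first number in their titles, whose meaning the labels do not give, had Unc79 differences of -0.44, -0.79, -1.08 and -0.13 on the log2 scale for replicates 1 to 4, all lower after SNT. The call was lost with that number as a block (log2 fold change -0.60, adjusted edgeR p 0.0568), under neuron marker scaling (-0.61, adjusted p 0.0823) and without any of sham libraries 1, 2 and 3 or SNT libraries 2, 3 and 4 (adjusted p 0.0522 to 0.0754), and without sham library 4 the change was -0.71 (adjusted p 0.00629). Of 6 neuron markers tested 3 passed lower, including Avil at -1.42 (lost without any 1 of 6 libraries and with the title number as a block) and Isl1 at -1.09 (lost without any 1 of 5). The summed neuron markers did not fall, at 6502 to 9145 CPM in sham (median 7934) and 5826 to 9384 CPM after SNT (median 8032). Single markers of other cell types passed higher: Sox10 (0.97) of 2 satellite glia markers tested, Mag (1.55) of 2 Schwann cell markers, Cx3cr1 (1.35) of 3 macrophage markers and Lum (0.79) of 2 fibroblast markers, while Mbp, Pmp22 and Fabp7 were listed at 0. The Lum call was lost without any 1 of 3 libraries and under an alternative. The satellite glia sums did not rise, at 7824 to 11946 CPM in sham and 6226 to 8325 CPM after SNT, with 4 of 6 markers at 0. Sums in sham and SNT were 983 to 1445 and 1146 to 2410.5 CPM for Schwann cells and 56.8 to 155 and 145 to 222 CPM for macrophages. Fibroblast sums were 878 to 2003 and 1855 to 2695 CPM. The part of these markers in the fall of Unc79 was not tested. Of the K2P genes 2 of 8 passed, near the share of 27.4% over all features, and both were lower: Kcnk9 (-3.11, adjusted edgeR p 0.0114) and Kcnk18 (-2.40, adjusted edgeR p 0.0177). The Kcnk18 call was lost without sham library 3 or SNT library 4 (adjusted edgeR p up to 0.0510). Among the channel regulators Src rose (0.76, adjusted edgeR p 0.0107), the only call of 5 tested. Fam155b, a paralog of Fam155a, averaged 28.2 ± 11.2 CPM in sham and 22.8 ± 4.70 CPM after SNT (SD, n = 4 each; adjusted edgeR p 0.375).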

How the data were processed

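The authors aligned stranded paired-end reads with STAR to mm10 and rn6, counted features with HTSeq over Ensembl genes and their own assembled LncRNAs, and deposited raw read counts per feature. The study found covered regions outside gene models, extended by 1000 bases, separately for each strand and assembled LncRNAs from them. Of the authors' result tables, which also hold a mean signal and their own comparisons, only the symbols were used. Positions came from the deposited annotation and GENCODE M21.

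From the counts, edgeR 4.0.16 (quasi-likelihood test, TMM, filterByExpr, Benjamini-Hochberg over all features, threshold 0.05) was fitted with sex and strain by surgery in mouse and surgery in rat, and the scripts were tested on simulated data. Sequences are the RefSeq mm10 genome. DESeq2 1.42.0, other filters, scalings, covariates and each library left out served as alternatives. Mouse samples 59 and 66 were not analysed here. The list of accessory proteins is not reported here, except for rat Fam155b. All members were named; of other lists, up to 3 called genes with the largest change per comparison; and the 3 features most like Nalcn and LncRNA6792. Members and lists were chosen with earlier results of these data known. Each mouse library is 1 animal; rat libraries are pools of 3, and p-values measure the spread between libraries.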

Additional observations from a re-analysis of the deposited data

Results flagged for a closer look

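None of the 26 tests of the highest or lowest library, 1 per member and group and for the ratio of LncRNA6792 to Nalcn, passed the 95% limit, where chance gives about 1 in 20. With 4 to 6 libraries in a group such a test misses all but very large deviations. It cannot show that no library stood apart, and B10.D2 SNI library 76 was low in LncRNA6792 at 0.766 CPM. The injury change of Gal, the neuropeptide galanin among the injury markers, differed between the strains by a log2 difference of -2.37 (SE 0.358, edgeR adjusted p 0.0140, B10.D2 change minus BALB/c change), with 145 ± 38.8 CPM in BALB/c SNI and 23.9 ± 5.40 CPM in B10.D2 SNI.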

How the results depend on the processing

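Depth limits LncRNA6792 most, at 0 to 10 counts in every sham library. The injury changes of Unc80 in both strains and the strain differences of Fam155a kept their direction and call under all alternatives. The BALB/c change of LncRNA6792 was 3.93 to 4.02 on the log2 scale under the alternatives that could be fitted (a minimum of 10 counts in every library leaves it out). As LncRNA6792 was chosen with these data in view, this is a description of the estimate and no support for the change. Under neuron marker scaling Nalcn lost its calls at -0.18 (BALB/c injury) and 0.15 (strain after SNI), uncalled values turned for Nalcn (0.02 for B10.D2 injury, -0.05 for strain in sham), Unc79 (-0.02) and Unc80 (-0.07) for strain in sham and Fam155a (0.01) for the difference in injury change, Unc79 passed for sex at -0.19, and rat Unc79 was not called at -0.61; that scaling gave 675 features for sex and 1715 in rat. Features called for the difference in injury change were 6, against 10 with DESeq2 and 3 with at least 10 counts in every library, with 1073 at an unadjusted p under 0.05; for sex they were 60, against 242 with DESeq2 and 222 without a filter. The relation of LncRNA6792 and Nalcn was -0.46 with log2(CPM + 1) and -0.14 with log2(CPM + 0.01), with permutation p-values of 0.0146 and 0.673.

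With single libraries left out, called features ranged from 665 to 1214 for B10.D2 injury (lowest without SNI libraries 90 and 69), 3 to 6 for the difference in injury change, 35 to 159 for sex and 1483 to 5041 in rat. Log2 fold changes ranged from -0.23 to -0.18 for Nalcn in BALB/c injury and 0.17 to 0.22 for strain after SNI, -0.71 to -0.52 for rat Unc79, 0.11 to 0.17 for Unc80 in strain after SNI (called without B10.D2 sham library 88), -0.03 to 0.06 for Unc80 in strain in sham, -0.05 to 0.02 for Fam155a and -0.01 to 0.04 for Unc79 in the difference in injury change, and 0.01 to 0.62 for LncRNA6792 in strain after SNI (highest without BALB/c SNI library 64). The relation ranged from -0.54 to -0.21. The cause of these shifts was not tested. With the first number of the rat titles as a replicate block the Unc79 change was -0.60 and not called, and 2558 features passed, against 3753; sham and SNT libraries with the same number deviated together with correlations of -0.238 to 0.0529, so the number was not taken to pair them.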
